A study of Mus musculus with 12 samples.

Results

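The mRNA levels of 39 genes of glucose breakdown and of the response to low oxygen were followed in mouse embryonic stem cells that have or lack the RNA demethylase gene Alkbh5, or carry an altered form of it. The genes were taken from a list that names each one by symbol and Ensembl identifier, and all 39 were found among the 56941 genes of the mRNA table. By role they are 2 glucose transporters, 14 glycolytic enzymes, 2 regulators of phosphofructokinase, 3 genes of lactate and pyruvate handling, 2 HIF alpha subunits, 2 prolyl hydroxylases and 14 other targets of the hypoxia response.

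Glycolysis splits glucose into pyruvate in the cytosol and yields ATP without oxygen, and lactate dehydrogenase turns pyruvate into lactate. The HIF alpha subunits are transcription factors that prolyl hydroxylases mark for destruction while oxygen is present; when oxygen is low they persist and raise the transcription of glucose transporters, glycolytic enzymes and genes such as Vegfa and Bnip3. Pluripotent mouse stem cells are known for a high rate of glycolysis, and much of the HIF response is set at the level of HIF protein, which RNA sequencing does not measure.

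The cells were E14TG2a, an established mouse embryonic stem cell line, of 3 genotypes. They are labelled WT, Alkbh5 KO (here KO) and Alkbh5 del-cIDR (here del-cIDR), the last for a deletion in Alkbh5 of what the label calls the cIDR. ALKBH5 removes the methyl group of N6-methyladenosine (m6A), the most common internal mark of mRNA. All 3 genotypes grew in serum with the cytokine LIF at 1000 U/ml, the MEK inhibitor PD0325901 at 1 µM and the GSK3 inhibitor CHIR99021 at 3 µM. An oxygen level, the number of clones behind each edited line and whether the replicates were separate cultures are not given in sources used here, so p-values measure only the spread between these libraries, which may be technical. The series has 12 samples, an input and an m6A immunoprecipitation (IP) library for each of 2 replicates per genotype. The values below come from the 6 input libraries, which are ordinary mRNA libraries of fragmented polyA RNA.

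Reads in genes numbered 25105719 and 34035774 (WT), 36678609 and 33014087 (KO) and 30978068 and 19918177 (del-cIDR), with replicate 1 first, here and in every pair of values below. Levels are given as RPM, a gene's share of all reads in genes scaled to a sum of 1e+06 per library, so that a value is relative to the other genes of its library. RPM is not divided by transcript length, and levels of different genes were therefore not compared. All 39 genes passed the filter of a mean of at least 1 RPM, as did 14851 genes in all. The reads of a listed gene in a library ran from 17 to 61077, and 37 of the 39 genes had at least 100 reads in every library. Differences are log2 differences of means on the log2(RPM + 0.5) scale with their standard error (SE), from limma fitted to all 14851 genes, and a gene is called at a Benjamini-Hochberg adjusted p under 0.05. Only the listed genes could be paired with symbols, so the level of Alkbh5, stem cell markers and markers of other cell types, further HIF pathway genes and m6A at the listed genes were not analysed here. In bulk RNA, fewer cells of a type and less RNA per cell cannot be told apart.

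Promoter sequences were set beside the list because HIF binds a short core, written ACGTG or GCGTG. RefSeq promoter windows of the GRCm38.p6 build, 250 bases before to 50 bases after a transcription start, were matched by symbol for 35 of the 39 genes, in 56 windows. Slc2a3, Ndrg1, Epas1 and Bnip3l had no entry. Either core, on either strand, was found in 45 of the 56 windows (80.4%), against 43.8% of all 32851 windows of the same length. The listed genes also have GC-rich promoters, with a median of 63.2% G and C against 52.7% in all windows. Among windows with at least 60% G and C the core was in 31 of 34 windows (91.2%) of the listed genes and in 69.2% of all such windows. By gene, 33 of 35 (94.3%) had a match in at least 1 window, against 46.7% of all 27025 genes, and Gpi1 and Tpi1 had none. With only windows of at least 60% G and C counted, 24 of 25 listed genes (96%) had a match, against 70.9% of all genes with such a window. The listed genes also have more windows each, 56 over 35 genes against 32851 over 27025. The E-box CACGTG, which contains ACGTG, was in 6 of the 56 windows (10.7%) and in 7.15% of all windows. A match is a run of letters and not a measured binding site, and the deposited m6A peaks are on another build and were not set on these windows.

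The promoters of 4 genes are shown, chosen after their levels were seen: Ldhb and Pdk1, the genes called between del-cIDR and WT, and Bnip3 and Ankrd37, hypoxia targets called in opposite directions between KO and WT. Each runs 5′ to 3′ on the strand of its gene, and capitals mark every match to ACGTG or GCGTG or to the reverse complement of either. Ldhb lies at chr6:142507908-142508207 on the minus strand, with 1 match, and Pdk1 at chr2:71872974-71873273 on the plus strand, with 2 matches in the first of its windows. Bnip3 lies at chr7:138909457-138909756 on the minus strand with 5 matches, and Ankrd37 at chr8:45999801-46000100 on the minus strand with 4. Matches on opposite strands can overlap and are counted apart, so CACGTG in Bnip3 and CACGCGTG in Ankrd37 each count as 2.
Ldhb: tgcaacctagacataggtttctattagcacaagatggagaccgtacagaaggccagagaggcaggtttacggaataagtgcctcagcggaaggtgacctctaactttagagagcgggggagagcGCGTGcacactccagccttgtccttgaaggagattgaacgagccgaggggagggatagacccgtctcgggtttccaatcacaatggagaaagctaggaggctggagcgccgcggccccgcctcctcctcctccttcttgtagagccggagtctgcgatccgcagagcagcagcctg
Pdk1: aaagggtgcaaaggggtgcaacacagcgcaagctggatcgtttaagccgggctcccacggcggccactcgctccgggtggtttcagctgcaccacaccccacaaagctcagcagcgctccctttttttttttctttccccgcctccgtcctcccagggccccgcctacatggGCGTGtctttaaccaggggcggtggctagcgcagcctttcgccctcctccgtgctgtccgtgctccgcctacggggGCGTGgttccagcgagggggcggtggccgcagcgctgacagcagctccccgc
Bnip3: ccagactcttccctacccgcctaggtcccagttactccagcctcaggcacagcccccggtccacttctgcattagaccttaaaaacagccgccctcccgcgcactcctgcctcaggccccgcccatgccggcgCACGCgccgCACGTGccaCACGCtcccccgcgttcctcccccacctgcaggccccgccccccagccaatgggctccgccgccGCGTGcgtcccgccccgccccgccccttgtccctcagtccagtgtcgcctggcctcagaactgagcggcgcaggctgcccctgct
Ankrd37: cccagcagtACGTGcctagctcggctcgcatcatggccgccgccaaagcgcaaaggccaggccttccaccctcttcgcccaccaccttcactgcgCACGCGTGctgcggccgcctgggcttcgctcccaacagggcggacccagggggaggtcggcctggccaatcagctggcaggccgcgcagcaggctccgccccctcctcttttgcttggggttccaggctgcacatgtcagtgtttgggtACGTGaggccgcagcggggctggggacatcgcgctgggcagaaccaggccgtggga

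In KO against WT the listed genes moved in both directions. The muscle form of phosphofructokinase (Pfkm), adenylate kinase 4 (Ak4) and lactate dehydrogenase B (Ldhb) were lower: mean RPM fell by 45.6% for the first, fell by 34.9% for the second and fell by 23.9% for the third, while hexokinase 2 (Hk2) and the hypoxia targets Ankrd37 and Ddit4 rose 1.21-fold, 1.46-fold and 1.27-fold on RPM, although all 3 were lower in KO on the scale of the deposited values, described further on. Of the 39 genes, 16 were called, 5 higher and 11 lower in KO. Calls were common in this comparison, since 30.3% of all genes tested were called (15.6% higher and 14.7% lower). Without KO replicate 1 the count was 9, beside 18.6% of all genes, and without KO replicate 2 it was 10, beside 17.5%. The median log2 difference was -0.19 over the 39 genes and 0.00 over all genes. In del-cIDR against WT only Ldhb and the pyruvate dehydrogenase kinase Pdk1 were called, both lower, where 13.1% of all genes were called (5.16% higher and 7.95% lower). A block set after seeing how the replicates differed, described with them further on, gave 11 there, beside 19.7% of all genes. It follows a pattern seen in the listed genes themselves, so nothing is read from that count. In del-cIDR against KO 19 were called, of which 13 were higher and 6 lower, beside 42.9% of all genes (20.1% higher and 22.8% lower). These comparisons share libraries and are not independent of each other. DESeq2 on the recovered reads called 7 of the 39 in KO against WT, where it called 26.1% of all genes, and 10 in del-cIDR against KO, where it called 37.1%. In the comparison of del-cIDR with KO, the calls of Hk2, Pfkm, Pdk1, Mxi1 and Ak4 held under all 20 alternatives run on RPM. In total 20 of the 39 genes were called in at least 1 comparison and 19 in none. The share of all genes was not computed for this, nor for calls that held under all alternatives. Nothing is therefore read from these counts.

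**Figure D1:**
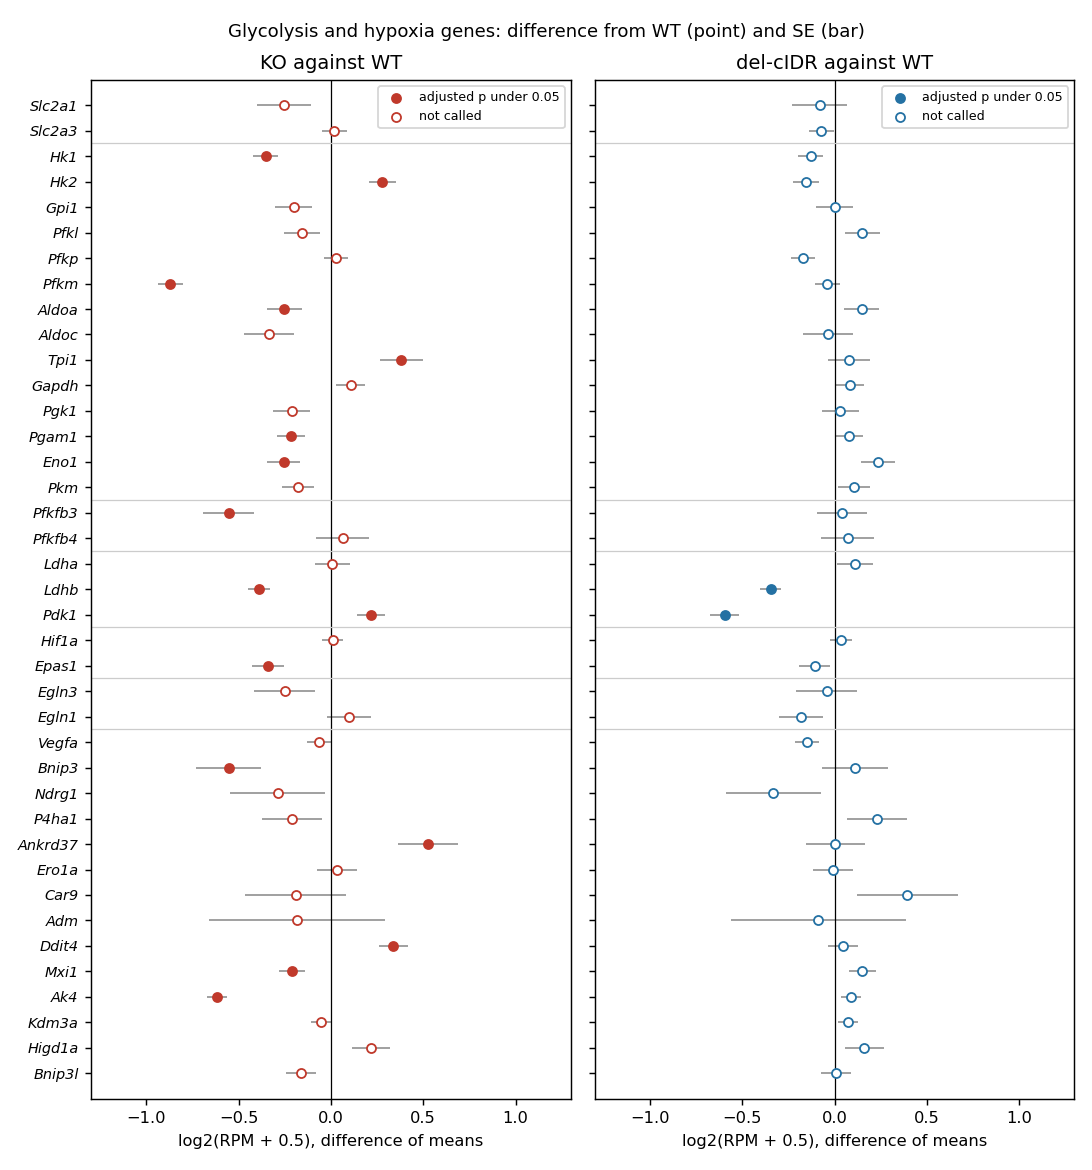
Difference from WT of each of the 39 genes in KO (left) and del-cIDR (right), as the log2 difference of means on the log2(RPM + 0.5) scale; points are estimates, bars are 1 SE, and filled points are genes with a limma adjusted p under 0.05. Pfkm lies farthest below 0 in KO at -0.87, and Ldhb and Pdk1 are the 2 filled points in del-cIDR.

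The glucose transporters were not called in any comparison. Slc2a1 (ENSMUSG00000028645), the widely expressed GLUT1, had 373 and 268 RPM (WT), 233 and 301 (KO) and 244 and 365 (del-cIDR). The 3 genotypes overlapped, and its replicates lay up to 1.49-fold apart. Slc2a3 (ENSMUSG00000003153), the high-affinity transporter GLUT3, had 1689 and 1503 RPM (WT), 1547 and 1679 (KO) and 1442 and 1595 (del-cIDR). Its difference between KO and WT was 0.02 (SE 0.07, adjusted p = 0.881), with a 95% interval from -0.13 to 0.16.

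Of the 14 glycolytic enzymes, 5 were called lower and 2 higher in KO than in WT, and none between del-cIDR and WT. In del-cIDR against KO 7 were higher and 3 lower. Over all genes tested, 14.7% were called lower and 15.6% higher in KO than in WT, and 13.1% between del-cIDR and WT. The shares in del-cIDR against KO were 20.1% higher and 22.8% lower. At the first step, the 2 hexokinases moved in opposite directions on RPM, though both were lower in KO on the deposited scale. Hk1 (ENSMUSG00000037012), the constitutive form, had 359 and 329 RPM (WT), 256 and 283 (KO) and 295 and 334 (del-cIDR). Both KO libraries were below both WT libraries, while del-cIDR overlapped WT. The difference was -0.35 (SE 0.07, adjusted p = 0.000605) in KO against WT and 0.22 (SE 0.07, adjusted p = 0.0124) in del-cIDR against KO, the latter not called without KO replicate 1 (0.15, adjusted p = 0.215) or without del-cIDR replicate 2 (0.13, adjusted p = 0.154).

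Hk2 (ENSMUSG00000000628), the inducible hexokinase and a HIF target, had 757 and 705 RPM (WT), 843 and 930.3 (KO) and 602 and 713 (del-cIDR). Both KO libraries were the highest of the 6. KO exceeded WT by 0.28 (SE 0.07, adjusted p = 0.0062), a call lost without WT replicate 2 (0.23, adjusted p = 0.0853) or KO replicate 2 (0.21, adjusted p = 0.13), and del-cIDR was below KO by a difference of -0.43 (SE 0.07, adjusted p = 8.1e-05). Within each library the ratio of Hk2 to Hk1 reads, which no scaling of a library can alter, was 2.11 and 2.14 (WT), 3.30 and 3.29 (KO) and 2.04 and 2.13 (del-cIDR). The KO ratios lay above all the others and differed little between replicates.

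Phosphofructokinase, the committed step of glycolysis, has liver (Pfkl), platelet (Pfkp) and muscle (Pfkm) forms, and Pfkm gave the largest KO difference of the list. Pfkm (ENSMUSG00000033065) had 71.0 and 73.1 RPM (WT), 39.3 and 39.1 (KO) and 67.5 and 72.8 (del-cIDR). KO was separate from both other genotypes, with differences of -0.87 (SE 0.07, adjusted p = 4.22e-08) against WT and 0.83 (SE 0.07, adjusted p = 2.82e-08) in del-cIDR against KO. Between del-cIDR and WT the difference was -0.04 (SE 0.07, adjusted p = 0.769).

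Pfkl (ENSMUSG00000020277) had 212 and 179 RPM (WT), 165 and 185 (KO) and 190.1 and 246 (del-cIDR), and was called only in del-cIDR against KO (0.31, SE 0.10, adjusted p = 0.0142). Pfkp (ENSMUSG00000021196) had 741 and 655 RPM (WT), 703 and 715 (KO) and 585 and 652 (del-cIDR), also called only there but lower (-0.20, SE 0.06, adjusted p = 0.0195). Both calls were lost in some fits with a library left out, although the Pfkp difference changed little without either KO library. Such a fit has only 1 library in a genotype and a wider SE. A lost call alone, here or below, therefore does not show that a difference rests on that library. Pfkl was not called without KO replicate 1 (0.22, adjusted p = 0.129) or del-cIDR replicate 2 (0.12, adjusted p = 0.296), and Pfkp was not without KO replicate 1 (-0.21, adjusted p = 0.0844), KO replicate 2 (-0.19, adjusted p = 0.129) or del-cIDR replicate 1 (-0.12, adjusted p = 0.191), nor with libraries centred on their medians (-0.18, adjusted p = 0.0881). The ratio of Pfkm to Pfkp reads was 0.0959 and 0.112 (WT), 0.0559 and 0.0547 (KO) and 0.115 and 0.112 (del-cIDR).

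Below phosphofructokinase, aldolase A, enolase 1 and phosphoglycerate mutase 1 were a little lower in KO. Aldoa (ENSMUSG00000030695), which splits fructose bisphosphate, had 1046 and 885 RPM (WT), 753 and 865 (KO) and 945 and 1198 (del-cIDR). Eno1 (ENSMUSG00000063524), which forms phosphoenolpyruvate, had 1114 and 921 RPM (WT), 817 and 879.6 (KO) and 1059.6 and 1341 (del-cIDR). Pgam1 (ENSMUSG00000011752), which moves the phosphate of phosphoglycerate, had 391 and 322 RPM (WT), 298 and 313 (KO) and 351 and 400.0 (del-cIDR). For all 3 both KO libraries were below every other library, by a small margin for Aldoa.

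The KO differences from WT were -0.25 for Aldoa (SE 0.09, adjusted p = 0.0469), -0.26 for Eno1 (SE 0.09, adjusted p = 0.0398) and -0.22 for Pgam1 (SE 0.08, adjusted p = 0.0413). Each stood close to the threshold, and centring the libraries ended all 3 calls (adjusted p = 0.115, 0.105 and 0.0942), as did edgeR on the reads (adjusted p = 0.073, 0.0609 and 0.0545). Without WT replicate 1 the differences were -0.13 (adjusted p = 0.456), -0.12 (adjusted p = 0.465) and -0.08 (adjusted p = 0.527). Without KO replicate 1 they were -0.15 (adjusted p = 0.371), -0.20 (adjusted p = 0.218) and -0.18 (adjusted p = 0.224), and Pgam1 was not called without KO replicate 2 either (-0.25, adjusted p = 0.0718). Between del-cIDR and KO the same 3 enzymes were higher in del-cIDR, by 0.40 (SE 0.09, adjusted p = 0.00194), 0.49 (SE 0.09, adjusted p = 0.000256) and 0.29 (SE 0.08, adjusted p = 0.00494). A robust variance prior ended the calls of Aldoa (adjusted p = 0.1365) and Eno1 (adjusted p = 0.0721). Those of Aldoa and Pgam1 were lost by DESeq2 (adjusted p = 0.105 and 0.111) and by limma without a variance trend (adjusted p = 0.0932 and 0.112). Without del-cIDR replicate 2 the Aldoa value was 0.23 (adjusted p = 0.0547) and the Pgam1 value 0.20 (adjusted p = 0.0764).

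Triosephosphate isomerase (Tpi1, ENSMUSG00000023456) was called higher in KO on RPM, though lower there on the deposited scale (-0.54). It had 249 and 196 RPM (WT), 271 and 306 (KO) and 197 and 276 (del-cIDR). KO was above WT by 0.38 (SE 0.12, adjusted p = 0.0174), a call lost without WT replicate 2 (0.21, adjusted p = 0.318) or KO replicate 2 (0.29, adjusted p = 0.104). Del-cIDR was called lower than KO (-0.30, SE 0.12, adjusted p = 0.0406) although their libraries overlapped. That call was lost with centred libraries (-0.28, adjusted p = 0.0983), and without WT replicate 1 (adjusted p = 0.0513), WT replicate 2 (adjusted p = 0.0518), KO replicate 2 (-0.22, adjusted p = 0.197) or del-cIDR replicate 1 (-0.06, adjusted p = 0.662).

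Pyruvate kinase (Pkm, ENSMUSG00000032294), the last enzyme of the pathway, had 2138 and 1793 RPM (WT), 1665 and 1789.8 (KO) and 1899 and 2342 (del-cIDR). It was called in del-cIDR against KO (0.29, SE 0.09, adjusted p = 0.0116), but not without KO replicate 1 (0.24, adjusted p = 0.107) or del-cIDR replicate 2 (0.14, adjusted p = 0.224). The other 4 enzymes were called nowhere. Gpi1, which isomerises glucose 6-phosphate, lay between 516 and 728 RPM, and Pgk1, which makes ATP, between 373 and 526. Gapdh, often used as a loading reference, had 1229 and 1109 RPM (WT), 1238 and 1277 (KO) and 1116 and 1372 (del-cIDR), a KO difference of 0.11 (95% interval from -0.05 to 0.27). Aldoc, the brain aldolase, had 48.0 and 37.4 RPM (WT), 29.5 and 38.0 (KO) and 35.0 and 48.8 (del-cIDR). Several of these enzymes have near-identical processed pseudogenes, and how reads shared with such copies were counted is not given in sources used here.

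**Figure D2:**
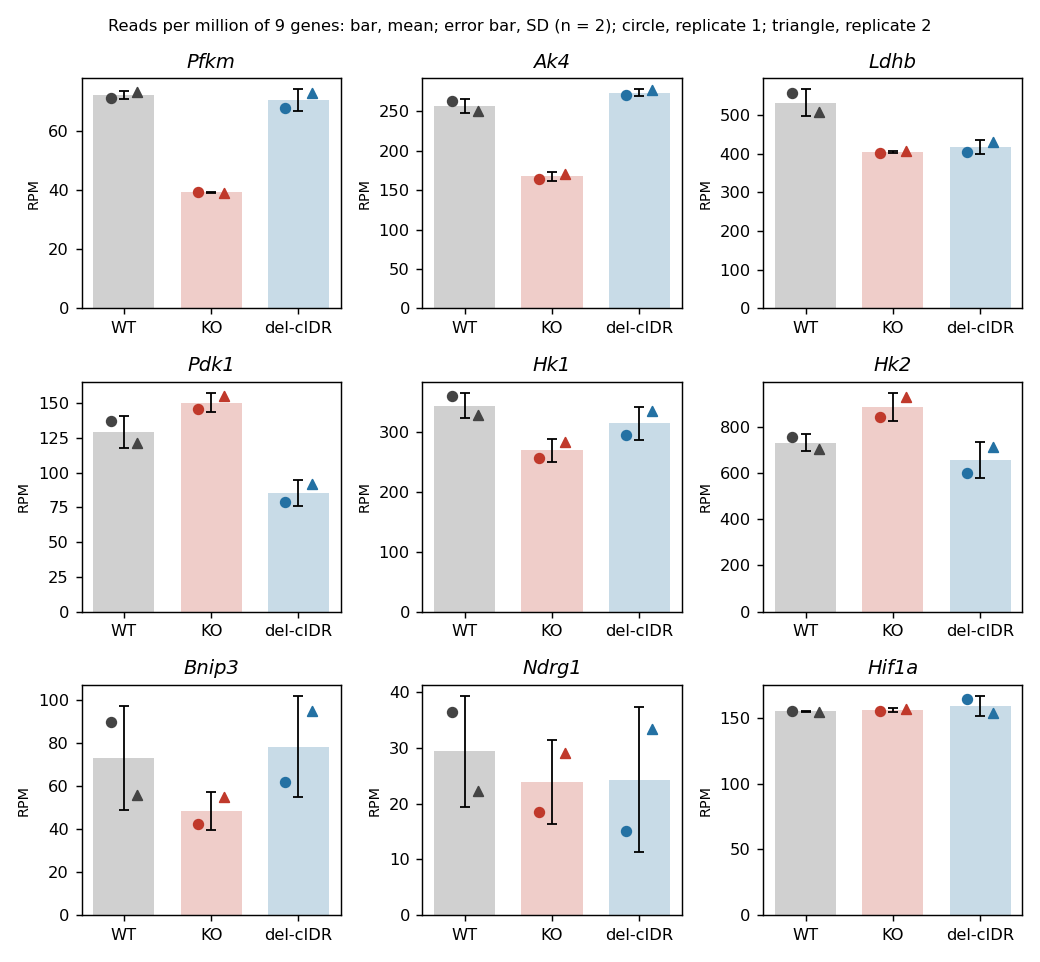
Levels in RPM of 9 genes by genotype; bars are means from 0, error bars are SD (n = 2), circles are replicate 1 and triangles replicate 2. KO is low and tight for Pfkm and Ak4, del-cIDR is low for Pdk1, both are low for Ldhb, Hif1a is level, and the replicates of Bnip3 and Ndrg1 lie wide apart in every genotype.

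Pfkfb3 and Pfkfb4 make and remove fructose 2,6-bisphosphate, the activator of phosphofructokinase. Pfkfb3 (ENSMUSG00000026773) had 33.9 and 25.9 RPM (WT), 18.3 and 22.0 (KO) and 26.0 and 35.7 (del-cIDR), with KO below both other genotypes. The difference was -0.55 (SE 0.14, adjusted p = 0.00459) against WT and 0.59 (SE 0.14, adjusted p = 0.00177) in del-cIDR against KO. The first call was lost without WT replicate 1 (-0.36) or KO replicate 1 (-0.42), and with a robust variance prior (adjusted p = 0.055). Both calls were lost by DESeq2 (adjusted p = 0.121 and 0.062) and by limma without a variance trend (adjusted p = 0.107 and 0.0697). Pfkfb4 (ENSMUSG00000025648) had 6.13 and 6.61 RPM (WT), 6.98 and 6.39 (KO) and 6.75 and 6.68 (del-cIDR), and was called nowhere.

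Lactate and pyruvate handling held the 2 genes called between del-cIDR and WT. Ldhb (ENSMUSG00000030246), the lactate dehydrogenase subunit of oxidative tissues, had 556 and 507 RPM (WT), 403 and 406 (KO) and 405 and 430.4 (del-cIDR). Both mutant genotypes were below WT, with differences of -0.39 (SE 0.06, adjusted p = 4.94e-05) in KO and -0.35 (SE 0.06, adjusted p = 0.000771) in del-cIDR, and they overlapped each other (0.05, SE 0.06, adjusted p = 0.559). Ldha (ENSMUSG00000063229), the subunit that favours lactate formation and a HIF target, had 814 and 635 RPM (WT), 678 and 770.0 (KO) and 703 and 858 (del-cIDR). Its genotypes overlapped, and it was called in no comparison. The ratio of Ldhb to Ldha reads was 0.684 and 0.798 (WT), 0.594 and 0.527 (KO) and 0.576 and 0.501 (del-cIDR), so both WT ratios lay above all 4 others.

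Pdk1 (ENSMUSG00000006494), which keeps pyruvate out of the mitochondrial dehydrogenase and is a HIF target, was the only listed gene called in all 3 comparisons. It had 138 and 121 RPM (WT), 146 and 156 (KO) and 79.0 and 92.3 (del-cIDR). Del-cIDR was lowest, with differences of -0.60 (SE 0.08, adjusted p = 6.04e-05) against WT and -0.81 (SE 0.08, adjusted p = 1.07e-07) against KO. KO was above WT by 0.22 (SE 0.08, adjusted p = 0.0369), but this call was lost without WT replicate 2 (0.13, adjusted p = 0.325), KO replicate 1 (0.27, adjusted p = 0.0601) or KO replicate 2 (0.17, adjusted p = 0.265), and with centred libraries (0.22, adjusted p = 0.0556). The del-cIDR differences of Ldhb and Pdk1 from WT were called under 19 of 20 alternatives run, the exception being a fit without the variance trend.

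Of the HIF alpha subunits, Epas1 was called lower in KO and Hif1a was called nowhere. Hif1a (ENSMUSG00000021109), the broadly expressed subunit, had 156 and 155 RPM (WT), 156 and 157 (KO) and 165 and 154 (del-cIDR). Its 95% interval ran from -0.11 to 0.13 in KO against WT and from -0.09 to 0.16 in del-cIDR against WT. Epas1 (ENSMUSG00000024140), which encodes HIF-2 alpha, had 34.3 and 35.8 RPM (WT), 28.2 and 26.9 (KO) and 31.0 and 34.1 (del-cIDR). KO was lowest, with a difference of -0.34 from WT (SE 0.08, adjusted p = 0.00478), and del-cIDR exceeded KO by 0.23 (SE 0.08, adjusted p = 0.0334).

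The Epas1 call in KO against WT was lost without KO replicate 2 (-0.31, adjusted p = 0.0756). In del-cIDR against KO it was lost without KO replicate 1 (0.27, adjusted p = 0.0953), KO replicate 2 (0.20, adjusted p = 0.226) or del-cIDR replicate 2 (0.16, adjusted p = 0.181). The prolyl hydroxylases, which target the HIF alpha subunits and are HIF targets themselves, were called nowhere. Egln1 (ENSMUSG00000031987) had 86.0 and 61.6 RPM (WT), 71.4 and 85.0 (KO) and 58.8 and 70.0 (del-cIDR), with overlap of KO and WT. Egln3 (ENSMUSG00000035105) had 26.5 and 17.8 RPM (WT), 15.8 and 21.0 (KO) and 17.9 and 24.9 (del-cIDR).

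Of the 14 other hypoxia targets, 2 were called higher and 3 lower in KO than in WT, and none between del-cIDR and WT. In del-cIDR against KO 4 were higher and 2 lower. The shares over all genes tested were 15.6% and 14.7%, 13.1%, and 20.1% and 22.8%, in the same order. Ak4 (ENSMUSG00000028527), an adenylate kinase of the mitochondrial matrix, had 264 and 251 RPM (WT), 164 and 171 (KO) and 270.4 and 277 (del-cIDR). KO lay far below the other 4 libraries, with differences of -0.62 (SE 0.06, adjusted p = 1.98e-07) against WT and 0.71 (SE 0.06, adjusted p = 1.63e-08) in del-cIDR against KO. In KO against WT the calls of Ak4, Pfkm and Ldhb held under every one of the 20 alternatives run on RPM, and those of the other 13 genes did not.

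Bnip3 (ENSMUSG00000078566), a mitochondrial receptor for mitophagy, had 90.1 and 55.9 RPM (WT), 42.4 and 54.8 (KO) and 61.8 and 95.1 (del-cIDR). Its replicates lay up to 1.61-fold apart, and WT replicate 2 was barely above KO replicate 2. The KO difference of -0.55 (SE 0.18, adjusted p = 0.0234) became -0.21 without WT replicate 1 (adjusted p = 0.495) and -0.37 without KO replicate 1 (adjusted p = 0.145). Del-cIDR was above KO by 0.66 (SE 0.18, adjusted p = 0.00526), and by 0.36 without del-cIDR replicate 2 (adjusted p = 0.133). Mxi1 (ENSMUSG00000025025), a repressor of MYC activity, had 59.4 and 56.6 RPM (WT), 47.5 and 52.5 (KO) and 65.1 and 63.8 (del-cIDR). It was lower in KO, with a difference of -0.21 (SE 0.07, adjusted p = 0.0325), with -0.14 to -0.28 and no call when any one WT or KO library was left out, and del-cIDR exceeded KO by 0.36 (SE 0.07, adjusted p = 0.0005).

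The 2 targets called higher in KO on RPM were Ankrd37 and Ddit4, both lower in KO on the deposited scale (-0.37 and -0.58). Ankrd37 (ENSMUSG00000050914), a small ankyrin repeat protein gene, had 9.52 and 7.46 RPM (WT), 11.0 and 13.9 (KO) and 7.26 and 9.84 (del-cIDR), on 196 to 459 reads a library. KO was above both other genotypes, by 0.52 against WT (SE 0.16, adjusted p = 0.019), and del-cIDR differed from KO by -0.52 (SE 0.16, adjusted p = 0.0141). Without WT replicate 2 or KO replicate 2 the KO difference was 0.36 in both cases (adjusted p = 0.21 and 0.237), and the del-cIDR difference from KO was -0.36 without KO replicate 2 (adjusted p = 0.189) and -0.31 without del-cIDR replicate 1 (adjusted p = 0.158).

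Ddit4 (ENSMUSG00000020108), an inhibitor of the growth kinase mTORC1, had 97.3 and 87.5 RPM (WT), 107 and 127 (KO) and 90.3 and 100.5 (del-cIDR). KO was highest, by 0.34 against WT (SE 0.08, adjusted p = 0.00335), and del-cIDR differed from it by -0.29 (SE 0.08, adjusted p = 0.00632). The first was lost without WT replicate 2 (0.26, adjusted p = 0.0746) or KO replicate 2 (0.22, adjusted p = 0.13), and the second without KO replicate 2 (-0.17, adjusted p = 0.193) or del-cIDR replicate 1 (-0.22, adjusted p = 0.0651). P4ha1 (ENSMUSG00000019916), a collagen prolyl hydroxylase subunit, had 79.9 and 52.8 RPM (WT), 51.3 and 61.2 (KO) and 61.1 and 95.1 (del-cIDR). It was called only in del-cIDR against KO (0.44, SE 0.16, adjusted p = 0.0354) with overlapping libraries, and not without KO replicate 1 (0.32, adjusted p = 0.157) or del-cIDR replicate 2 (0.13, adjusted p = 0.554).

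The remaining 8 hypoxia targets were called in no comparison. Vegfa (ENSMUSG00000023951), the angiogenic growth factor, had 200.0 and 186 RPM (WT), 179.7 and 189.6 (KO) and 165 and 184 (del-cIDR). Kdm3a (ENSMUSG00000053470), a histone demethylase, had 252 and 243 RPM (WT), 235 and 242 (KO) and 255 and 266 (del-cIDR). Bnip3l (ENSMUSG00000022051), a relative of Bnip3, lay between 101 and 131 RPM. Ero1a, an oxidase of the endoplasmic reticulum, lay between 84.9 and 112 RPM, and Higd1a, a mitochondrial inner membrane protein, between 34.0 and 46.9. Replicates of these 5 genes lay at most 1.05-fold (Kdm3a) to 1.32-fold (Ero1a) apart.

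The other 3 targets varied most between replicates. Ndrg1 (ENSMUSG00000005125) had 36.4 and 22.3 RPM (WT), 18.5 and 29.2 (KO) and 15.1 and 33.5 (del-cIDR). Its del-cIDR replicates were 2.17-fold apart once 0.5 was added to each RPM. Adm (ENSMUSG00000030790), the vasodilator peptide adrenomedullin, had 3.07 and 1.12 RPM (WT), 1.15 and 2.21 (KO) and 0.549 and 4.37 (del-cIDR). Its del-cIDR replicates rest on 17 and 87 reads, with 95% Wilson intervals of 0.343 to 0.879 and 3.54 to 5.39 RPM, which cover counting error only. Car9 (ENSMUSG00000028463), a carbonic anhydrase that is a common hypoxia marker, had the fewest reads over the 6 libraries, 21 to 36 in each, and 1.31 and 0.617 RPM (WT), 0.627 and 0.878 (KO) and 1.16 and 1.61 (del-cIDR).

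**Figure D3:**
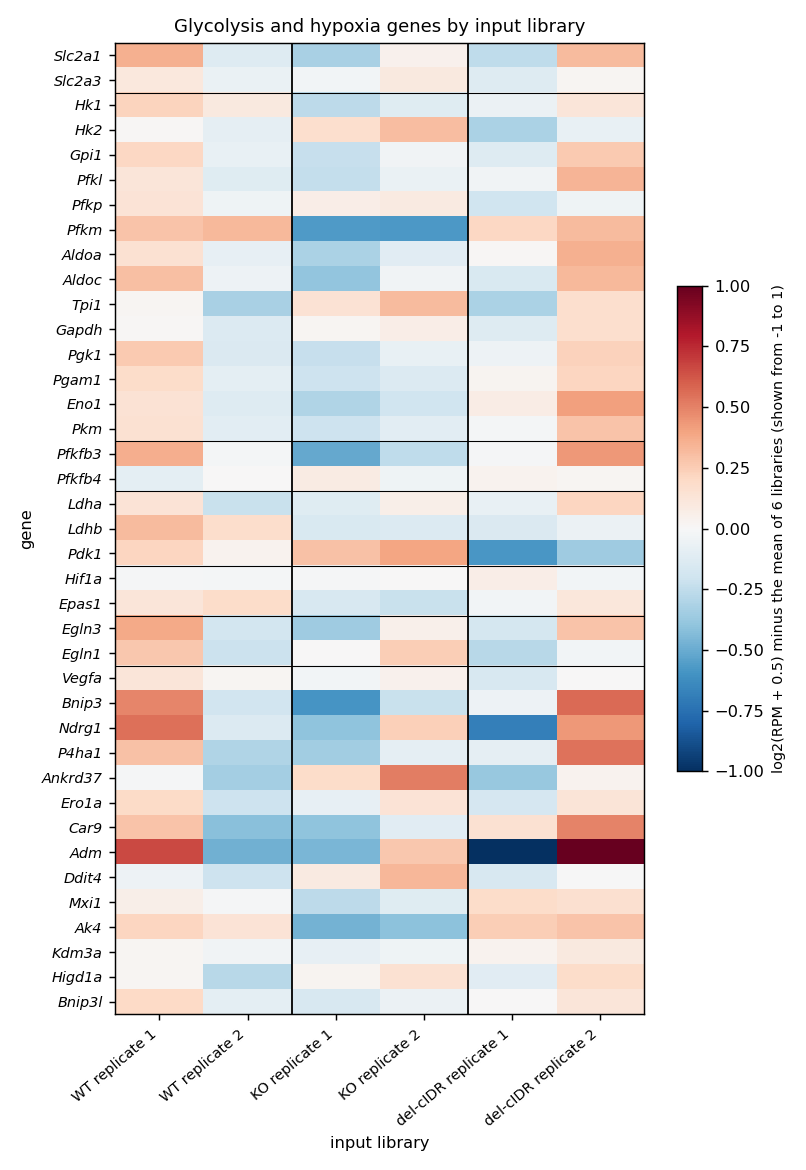
Level of each of the 39 genes in each input library as log2(RPM + 0.5) minus its mean over the 6 libraries, on a colour scale from -1 to 1, with genes grouped by role. WT replicate 1 and del-cIDR replicate 2 are red over most genes, and the KO columns stand out in blue for Pfkm, Ak4 and Pfkfb3.

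The replicates of a genotype differed in a shared direction over most of the list. On RPM, 34 of the 39 genes (87.2%) were higher in WT replicate 1 than in WT replicate 2, in KO replicate 2 than in KO replicate 1, and in del-cIDR replicate 2 than in del-cIDR replicate 1, where 11.3% of all 14851 genes were. The orientation of the 3 pairs was chosen after the values were seen, so this is a description with no test. The median log2 differences in those directions were 0.28 in WT, 0.14 in KO and 0.29 in del-cIDR over the 39 genes, against -0.03, -0.01 and -0.04 over all genes. All 14 hypoxia targets and 13 of the 14 glycolytic enzymes were higher in the same library of WT, and the same counts held for KO.

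The 5 genes outside the pattern were Pfkm, Hif1a, Mxi1, Epas1 and Pfkfb4. With libraries centred on their medians the count was 36 of 39 (92.3%) against 17.7% of all genes, and on the deposited scale it was 2 of 39 (5.13%) against 0.135%. The summed RPM of the 14 glycolytic enzymes was 9580 and 8176 (WT), 7967 and 8627 (KO) and 8321 and 10239.6 (del-cIDR), so the replicates of WT and del-cIDR were further apart than the genotype means of WT and del-cIDR. The 3 genes whose KO calls held under every alternative had replicates that lay close together, at most 1.05-fold apart for Ak4, 1.08-fold for Pfkm and 1.10-fold for Ldhb. An alternative chosen after seeing the data used the replicate numbers as a block, with those of WT crossed as in this pattern. On RPM it called 27 listed genes in KO against WT (36.7% of all genes) and 11 in del-cIDR against WT (19.7%). In del-cIDR against KO it called 26 (48.1%). The fit without a block gave 16, 2 and 19. Since the block follows a pattern seen in these same genes, nothing is read from their counts under it.

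**Figure D4:**
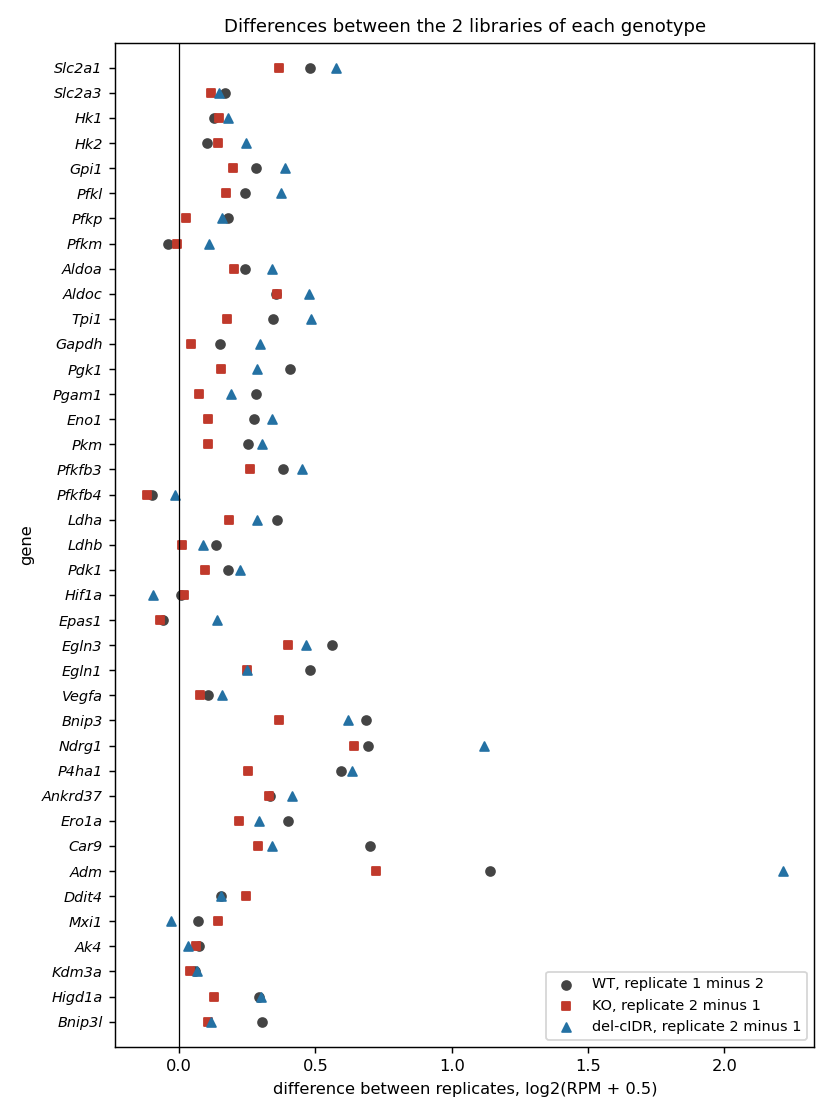
Log2 difference between the 2 libraries of each genotype for each gene, taken as replicate 1 minus 2 in WT and as replicate 2 minus 1 in KO and del-cIDR. Differences are on the log2(RPM + 0.5) scale. Points of all 3 genotypes lie to the right of 0 for 34 of the 39 genes, farthest for Adm. Its del-cIDR libraries, at 0.549 and 4.37 RPM, were 4.64-fold apart once 0.5 was added to each RPM.

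Leaving out a del-cIDR library moved the del-cIDR counts. Against WT, 8 genes were called without del-cIDR replicate 1, 6 of them higher, where 14.3% of all genes were called (4.77% higher and 9.54% lower). Without del-cIDR replicate 2 there were 6, none of them higher, where 8.69% of all genes were called (3.58% higher and 5.12% lower). All libraries together gave 2. Adm against KO turned from 0.10 (adjusted p = 0.886) to -1.01 without del-cIDR replicate 2 (adjusted p = 0.0483).

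The deposited mRNA values gave another picture of level, because they carry 1 factor per library tied to the input reads of a control. Whether that control was added per cell or per RNA mass is not given in sources used here. The factors were 2.98 and 2.11 (WT), 1.23 and 1 (KO) and 2.77 and 2.33 (del-cIDR), and each rests on 427 to 1273 control reads. On that scale the median gene was lower in KO than in WT by a log2 difference of -0.92, and all 39 listed genes were lower in both KO libraries than in both WT libraries, as were 93.1% of all genes. The listed genes had a median of -1.13, and 25 of the 39 lay below the median of all genes. On RPM 25 had a difference below 0. The factor is shared by all genes of a library, so this is no separate result. The 5 genes called higher in KO on RPM were lower there on the deposited scale: the differences were -0.65 for Hk2, -0.54 for Tpi1, -0.71 for Pdk1, -0.37 for Ankrd37 and -0.58 for Ddit4, with adjusted p from 0.219 to 0.502. Their direction therefore turns with the scale, while the lower calls keep theirs, because the library factors shift all genes of KO down together.

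Tested on the deposited scale, with log2(value + 1), 2 of the 39 genes were called in KO against WT, where 4.39% of all genes were. With all libraries, limma's variance prior had infinite degrees of freedom on this scale, against 15.28 on RPM. Each SE here is therefore the trend over all genes and not the gene's own spread. It includes the difference in factor between replicates, which all genes of a library share, so these p-values are not separate evidence for each gene. Pfkm had deposited values of 5316 and 5259 (WT), 1779 and 1290.0 (KO) and 5802 and 3375 (del-cIDR), a KO difference of -1.80 (SE 0.52, adjusted p = 0.021). Ak4 had 19742 and 18034 (WT), 7418 and 5651 (KO) and 23236 and 12830.1 (del-cIDR), a KO difference of -1.54 (SE 0.50, adjusted p = 0.046). Both calls were lost when any one WT or KO library was left out, while 36 of the 39 genes were called, all lower, with either del-cIDR library left out, where 78.7% of all genes were called. Relative to the median shift of all genes, Pfkm, Ak4 and Ldhb (-1.32, SE 0.48, adjusted p = 0.082) were lower in KO. Taking out that shift removes the library factors, so this repeats the RPM result and is no separate support.

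In del-cIDR against WT the median of all genes was -0.23 and that of the listed genes -0.19 on the deposited scale, and 0 listed genes were called by limma, where 0.00673% of all genes were, or by edgeR with the deposited factors. None had an unadjusted p under 0.05, against 1.56% of all genes. Ldhb (-0.56), Pdk1 (-0.82) and Ndrg1 (-0.56) were lower in both del-cIDR libraries than in both WT libraries, 3 of the 39 against 11.9% of all genes. In del-cIDR against KO the medians were 0.69 and 0.88. Only Pdk1 had a difference below 0 (-0.11), as did 7.78% of all genes, so the lower calls of Hk2, Pfkp, Tpi1, Ankrd37 and Ddit4 on RPM turn with the scale. Again 0 listed genes were called by limma, where 3.19% of all genes were, or by edgeR, but 31 were with del-cIDR replicate 2 left out, beside 77.8% of all genes, and 2 with replicate 1 left out, beside 3.43%. An unadjusted p under 0.05 was found for 13 listed genes with all libraries and for 18.7% of all genes.

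**Figure D5:**
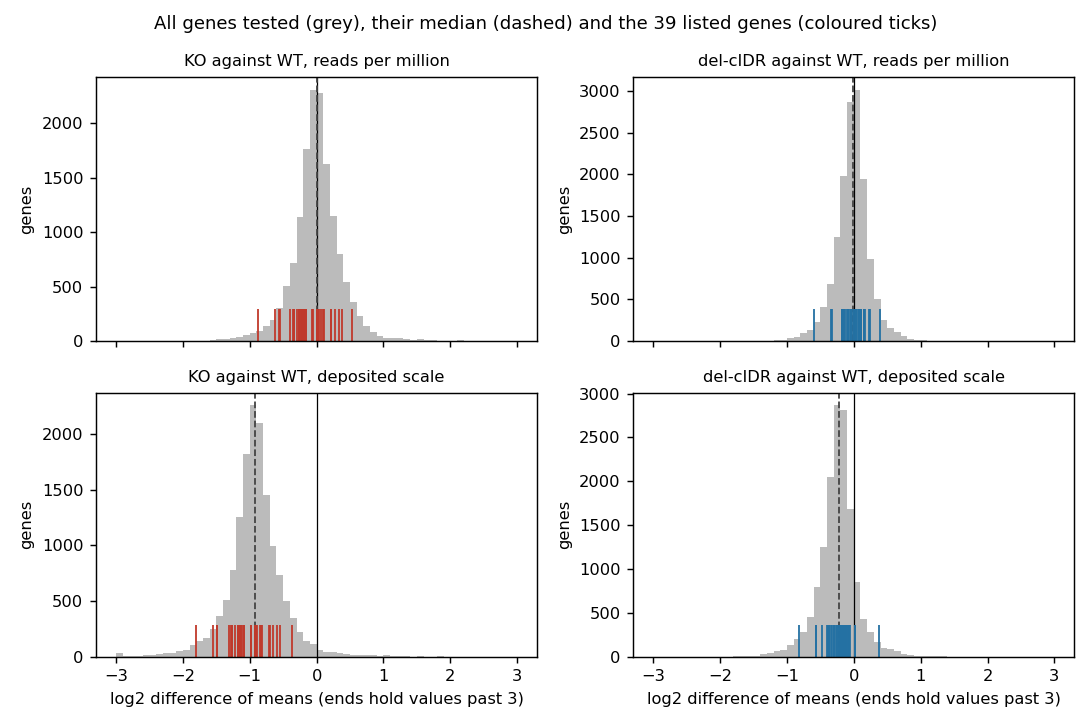
Histograms of the log2 difference from WT of all 14851 genes (grey) with their median (dashed line) and the 39 listed genes (coloured ticks), in KO (left) and del-cIDR (right), on RPM (top) and on the deposited scale (bottom). The KO histogram is centred on 0 on RPM and on -0.92 on the deposited scale, and the ticks move with it.

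Ratios between related genes of one library are free of the library's scale. Of 11 such pairs, the KO ratios lay above both WT ratios in 2, below both in 7, and overlapped in 2. Between del-cIDR and WT, 2 were higher, 2 lower and 7 overlapped, and between del-cIDR and KO 6 were higher, 2 lower and 3 overlapped. Beside Hk2 over Hk1, the other higher pair in KO was Pfkfb4 over Pfkfb3, at 0.181 and 0.255 (WT), 0.382 and 0.291 (KO) and 0.259 and 0.187 (del-cIDR). Epas1 over Hif1a was 0.220 and 0.231 (WT), 0.182 and 0.171 (KO) and 0.188 and 0.221 (del-cIDR). Egln3 over Egln1 was 0.308 and 0.289 (WT), 0.221 and 0.247 (KO) and 0.304 and 0.355 (del-cIDR). In both of these pairs the KO ratios were the lowest of the 6, and Bnip3 over Bnip3l was likewise lower in KO (0.418 and 0.503) than in WT (0.690 and 0.528). Single genes often separated the genotypes too: on RPM the libraries did not overlap for 68.0% of all genes between KO and WT, 52.2% between del-cIDR and WT and 72.2% between del-cIDR and KO. No such share over all gene pairs was computed, so nothing is read from the counts of pairs, and with 2 libraries a genotype no test was run on these ratios.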

How the data were processed

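Input and IP libraries of E14TG2a cells were made with a stranded kit from fragmented polyA RNA, per the labels' protocols. Tools listed in the submitters' processing notes, with no role or version, are HISAT2, featureCounts, SAMtools, Picard, fastp, bedtools and MACS2, and the build listed is GRCm39. The mRNA table that the authors deposited holds a signal per gene and input library, which from the values is reads times 1 factor per library (1273 over the input reads of a control, 427 to 1273, which have a counting error of 2.80% to 4.84%). Since this factor is 1 for KO replicate 2, that column as deposited holds counts. Dividing by the factor gave whole reads for 100% of values in every library (tolerance 0.001 reads). The m6A table that the authors deposited holds, from its values, a scaled ratio of IP to input reads for 12923 peaks. No annotation of its build was given, so no peak was paired with a gene and m6A was not analysed here.

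The listed genes, their roles and the tests were chosen with earlier results of these data known. Symbols come from that list: the RefSeq gene table in use pairs none of the Ensembl identifiers with symbols (0 matched), and the other lists drawn up for cell types, the HIF pathway, glucose use and respiration were not analysed here. Each value was divided by its column sum and multiplied by 1e+06 (RPM), which removes the factor. With R 4.3.3, limma 3.58.1 was run on log2(RPM + 0.5) of the 6 input libraries together, with a variance trend, over 14851 genes with a mean of at least 1 RPM. The same fit was run on log2(value + 1) of the deposited values. All 39 genes were accounted for, with a value per library for each gene called, each extreme of its role and others by role.

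Alternatives were other pseudocounts, filters and scalings, edgeR 4.0.16 and DESeq2 1.42.0 on the recovered reads, other variance models, the replicate number as a block and leaving out each library. edgeR on these reads gave a biological coefficient of variation of 5.53%. The fits were first run on simulated data. Those data had the same biological spread for every gene and no shared replicate pattern, so nothing about the calls here is read from them. Replicates were not copies of 1 library, since their variance was 2.54 to 3.71 times that of sampling.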

Additional observations from a re-analysis of the deposited data

How the results depend on the processing

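Alternatives named here were chosen with earlier results known, and the crossed numbering after seeing the data. On RPM, the listed genes called in KO against WT (16) were 7 with no filter, 7 by DESeq2, 4 without the variance trend, 10 with a robust prior (3481, 3871, 3156 and 4590 of all genes) and 9 to 18 with 1 library left out. In del-cIDR against WT (2) they were 0 without the trend and 2 to 8 with 1 library left out. In del-cIDR against KO (19) they were 10 with no filter, 10 by DESeq2, 6 without the trend, 12 with a robust prior (5554, 5512, 5006 and 6447 of all genes, against 6370) and 14 to 21 with 1 library left out; Adm, at 0.10 with all libraries, became -1.01 when del-cIDR replicate 2 was left out and 1.20 when replicate 1 was. On the deposited scale, KO against WT (2) gave 1 with no filter, 1 at a mean of at least 10 RPM, 1 by edgeR with the deposited factors, 9 without the trend, 36 with only the 2 genotypes in the fit and 0 to 36 with 1 library left out, del-cIDR against WT gave 0 throughout, and del-cIDR against KO (0) gave 4 without the trend and 0 to 31 with 1 library left out. On that scale, the share of all genes called in KO against WT was 17.7% without the trend and 78.7% with only the 2 genotypes in the fit. In del-cIDR against KO it was 8.03% without the trend. The shares beside 36 and 31 with 1 library left out are given in the Results. Nothing about the list is therefore read from these higher counts. The cause of the changes was not tested. A lone library of a genotype is assumed to vary like the others.

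Same-numbered replicates of WT and KO deviated with a correlation of -0.12, of WT and del-cIDR -0.11, and of KO and del-cIDR 0.12, over 14851 genes, so the numbers were not taken to pair libraries. With the replicate block the listed genes called on RPM were 17, 2 and 20 in the 3 comparisons (4384, 1843 and 6227 of all genes), and on the deposited scale 29, 0 and 8 (6096, 10 and 1667). With the numbers of WT crossed as the block, they were 27, 11 and 26 on RPM (5444, 2920 and 7143) and 17, 0 and 5 on the deposited scale (3112, 5 and 1141).

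Over all genes, del-cIDR against WT on RPM (1946) gave 927 with no filter, 487 without the trend, 2920 with the crossed block and 856 to 2125 with 1 library left out, and KO against WT (4502) gave 2601 to 5154 with 1 library left out. On the deposited scale KO against WT (652) ranged from 13 to 11695 and del-cIDR against KO (474) from 37 to 11561. Centring libraries on their medians moved the share of higher calls in del-cIDR against WT from 39.4% to 50.5%. No listed gene called on RPM turned direction under an RPM alternative. The alternatives planned for m6A peaks were not run. Depth limits Adm and Car9 most, with under 100 reads in every library.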
